A study of Cyanidioschyzon merolae with 75 samples.

Results

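CMG018C, CMG019C and CMG021C are neighbouring loci on chromosome 7 of the unicellular red alga Cyanidioschyzon merolae, annotated as a nitrate transporter, a nitrate reductase and a nitrite reductase. They were chosen by these locus tags for their place in nitrate use, and they are 3 of the 4576 genes on the array. The product names are those under which the loci were chosen, since the reference table used here pairs tags with neighbours but names no product. A nitrate transporter carries nitrate through the plasma membrane, nitrate reductase turns it into nitrite in the cytosol, and nitrite reductase turns nitrite into ammonium in the plastid. Glutamine synthetase and glutamate synthase then build that ammonium into amino acids. In algae and plants the transcripts of this route are known to be low where ammonium is supplied and higher where nitrate is the nitrogen source.

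The strain 10D was synchronised with light and dark periods and sampled every 2 h from 2 to 50 h, a course that spans a pair of cell cycles. The question addressed here is when the 3 transcripts were high in each cycle and whether they moved together. At each of the 25 times, RNA amplified from an oligo(dT) primer and labelled with Cy3 was hybridised against a Cy5-labelled mixture of the course's samples, with the dyes never swapped, so any dye bias is part of every ratio. The growth medium, its nitrogen source and the hours of light and dark are not stated in the labels. All groups share the strain and the synchronisation, and they differ by sampling time.

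The 75 deposited arrays are labelled as 3 series of 25 times, but their values were not independent. Series 3 equalled the mean of series 1 and 2, within 0.01%, at all 24 times at which the 3 could be compared. The SD over probes of the difference between the readings of series 1 and 2 lay between 0.0432 and 0.123 on the log2 scale, with a median of 0.0884. Series 3 therefore gave 1 value per time, and each p-value below measures the scatter of single times around a curve or between matched times, not the spread between cultures. Array brightness was uneven, with a median Cy5 signal of 12093 to 14416 at 2, 4, 6 and 26 h and of 552.3 to 4668 elsewhere. Values are log2 ratios of Cy3 to Cy5 with each array's median over all probes set to 0, so 0 is the ratio of a typical gene at that time. A higher ratio in bulk RNA can come from more cells carrying a transcript or from more of it per cell, and these cannot be told apart.

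The transporter transcript, CMG018C, rose in the later part of the first cycle and had no such rise 24 h later. In 2 h steps from 2 to 12 h its log2 ratio was -0.02, -0.03, -0.01, 0.65, 0.08 and 0.40. The 6 values from 14 to 24 h were 1.24, 0.89, 0.98, 0.60, 0.51 and -0.14. The first 3 values lay at the typical gene, 8 h stood alone above its neighbours, and the 5 values from 14 to 22 h formed an unbroken high stretch that closed within 1 sampling step. As a ratio, the transporter stood 2.35-fold above the typical gene at 14 h, 1.85-fold at 16 h and 1.97-fold at 18 h. From 14 to 22 h between 98.0% and 99.7% of all genes had a lower ratio than the transporter.

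From 26 to 36 h the transporter ratio was -0.02, 0.24, 0.40, 0.13, -0.09 and 0.03. From 38 to 48 h it was 0.03, 0.06, 0.04, -0.14, -0.10 and 0.38, and at 50 h it was 0.17. The highest of the 12 values from 26 to 48 h, at 30 h, was below 6 of the 12 values of the first cycle. The hours that matched the high stretch, 38 to 46 h, lay between -0.14 and 0.06. Over the first cycle the mean was 0.43 ± 0.46 (SD over 12 times) and over the second 0.08 ± 0.18 (SD over 12 times), and the ranges of the cycles overlapped.

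The only repeat measure of a time is its pair of readings, which shows technical error and nothing of the spread between cultures. For CMG018C the difference between readings had an SD of 0.080 over 24 times and was at most 0.199. At 14 h, where the series 1 and 2 files hold no intensities, the authors' deposited log2 ratios of the transporter were 1.06, 1.05 and 1.06 in series 1, 2 and 3. The steps that bound the high stretch were a rise of 0.84 from 12 to 14 h and a fall of 0.65 from 22 to 24 h. The step into 8 h was 0.67 and the step out of it -0.57. Each of these 4 steps was larger than the largest difference between readings. Such differences compare readings within a time, so they do not measure error between the arrays of different times. Among probes of like mean signal, the 10th to 90th percentile was -0.15 to 0.09 at 6 h and -0.47 to 0.44 at 8 h.

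**Figure D1:**
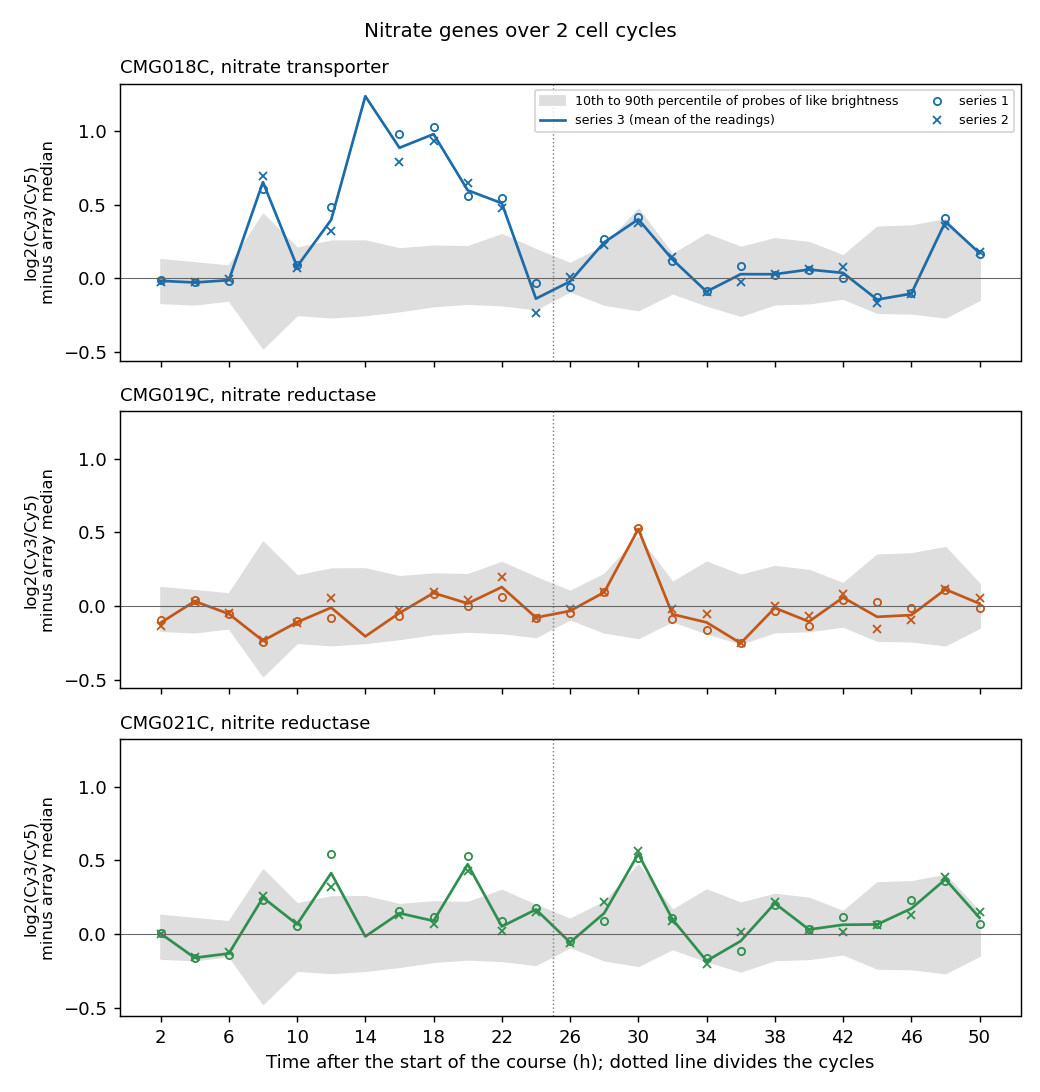
Log2 ratio of each member to the pool (array median set to 0) against time in hours for the 25 times. CMG018C reached 1.24 at 14 h and stayed at 0.51 or above until 22 h, whereas CMG019C and CMG021C peaked at 30 h with 0.52 and 0.54.

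The nitrate reductase transcript, CMG019C, stayed close to the typical gene at nearly every time. In the first cycle it ran from -0.23 at 8 h to 0.13 at 22 h, with a mean of -0.05 ± 0.11 (SD over 12 times). In the second cycle it ran from -0.25 at 36 h to 0.52 at 30 h, with a mean of 0.01 ± 0.19 (SD over 12 times). The value at 30 h stood alone, since the ratio was 0.09 at 28 h and -0.05 at 32 h. During the high stretch of the transporter, the 5 values of CMG019C were -0.21, -0.05, 0.09, 0.02 and 0.13. Nitrate reductase thus had no stretch of high values between 14 and 22 h. The readings of this gene differed with an SD of 0.067 and by at most 0.186.

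The nitrite reductase transcript, CMG021C, was high at single times and not over a stretch. Its high values in the first cycle were 0.25 (8 h), 0.41 (12 h) and 0.47 (20 h), and in the second 0.54 (30 h) and 0.37 (48 h). Its lowest values were -0.16 (4 h) and -0.18 (34 h). For 14, 16, 18 and 22 h it was -0.02, 0.14, 0.09 and 0.05, so its high time at 20 h was not part of a longer stretch. The mean was 0.11 ± 0.19 (SD over 12 times) in the first cycle and 0.12 ± 0.20 (SD over 12 times) in the second. Readings of CMG021C differed with an SD of 0.075 and by at most 0.221, at 12 h.

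The whole range over 25 times was 1.38 for the transporter, a 2.60-fold span, against 0.77 for nitrate reductase and 0.73 for nitrite reductase. The median range of all genes was 0.918. The transporter's range was larger than that of 75.8% of genes, and those of the reductases were larger than that of 33.2% and 27.2%. A range of at least 1 was found for 1 of the 3 members and for 43.0% of all genes, so the size of the transporter's swing alone does not set it apart.

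With the probes split by mean signal into 4 classes of equal size, all 3 members lay in the second dimmest, at percentiles 36.1, 32.4 and 38.9 of the mean signal. In the median over arrays, the 10th percentile of Cy3 lay at -0.80 and the 90th at 1.97 on the log2 scale relative to the array median. Most probes of that class varied little, with a median SD over the 25 times of 0.172 and a 90th percentile of 0.248. The SD of CMG018C was 0.376 and exceeded that of 98.5% of the class's probes. CMG019C had an SD of 0.151, which exceeded 29.9% of them, and CMG021C had 0.186, which exceeded 62.7%. In brightness the transporter's Cy3 signal went from percentile 8.92 of the array at 10 h to percentile 85.2 at 14 h. Its Cy5 signal, from the mixture, was also lowest at 10 h and highest at 14 h, at percentiles 6.06 and 58.4. What moved the signal in both channels was not tested. The deposited files hold no background or flag column, so how far each probe stood above background was not measured.

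A single 24 h rhythm over all 25 times was called for 0 of the 3 members, while 6.03% of all genes were called (limma's moderated F-test, with an adjusted p under 0.05 over all genes and at least 1 between the curve's peak and trough, in log2 units). None of the 3 passed an unadjusted p of 0.05 either with the array median set to 0. The fitted peak-to-trough was 0.38 ± 0.19 (SE) for CMG018C with an adjusted p of 0.312, 0.15 ± 0.086 for CMG019C with 0.425 and 0.074 ± 0.11 for CMG021C with 0.878. For CMG018C the adjusted p was 0.04997 in the authors' log2 values, just under the threshold, and 0.0450 with array weights, at a peak-to-trough of 0.62 and 0.45, which is under the 1 that a call needs. The median over the 3 members was thus 0.15, and over all genes it was 0.235.

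Fitted on 2 to 24 h alone, the transporter had a rhythm with a peak-to-trough of 1.03 ± 0.20 (SE), a peak at 15.7 ± 0.74 h and an adjusted p of 0.0131 in limma. It was the 1 member called of the 3, and 5.20% of all genes were called in that cycle. With the median of the neighbouring probes subtracted the peak-to-trough was 0.83 with an adjusted p of 0.121, and without the 4 bright arrays 1.1 with 0.110, so the call did not hold under these settings. Nitrate reductase had 0.18 ± 0.10 with an adjusted p of 0.457 and nitrite reductase 0.24 ± 0.15 with 0.503. Fitted on 26 to 48 h alone, 0 of the 3 members and 6.34% of all genes were called. There the peak-to-trough was 0.26 ± 0.15 for CMG018C, 0.26 ± 0.15 for CMG019C and 0.20 ± 0.16 for CMG021C, with adjusted p-values of 0.438, 0.471 and 0.645.

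The rhythm was then compared between the cycles in 1 model. For the transporter the fitted peak-to-trough fell by 0.77, from 1.03 to 0.26, with an adjusted p of 0.0377 in limma's interaction test. It was called for 1 of the 3 members and for 0.721% of all genes. With loess normalisation within each array the fitted values were 1.05 and 0.26 with an adjusted p of 0.0277. The call was lost in 20 of 38 alternatives, 17 of them with 1 time or series left out. The size of the fall in those 20 lay between 0.57 and 0.87. Leaving out a series removed no reading in full, since 1 series is the mean of the others. For nitrate reductase the fitted values were 0.18 and 0.26 with an adjusted p of 0.477, and for nitrite reductase 0.24 and 0.20 with 0.467.

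Set against the same hour 24 h earlier, the transporter was lower in the second cycle at 9 of 12 matched times. The difference, second minus first, was -1.21 for 38 against 14 h, -0.83 for 40 against 16 h, -0.94 for 42 against 18 h, -0.74 for 44 against 20 h and -0.61 for 46 against 22 h. The first value was thus 2.31-fold the second at 14 h and 1.53-fold at 22 h. The difference ran the other way for 30 against 6 h, at 0.41, and for 48 against 24 h, at 0.52. The mean over all 12 was -0.35 ± 0.14 (SE) with an unadjusted p of 0.0281 and an adjusted p of 0.228 in limma, so the level over the whole cycle was not called. For nitrate reductase the mean difference was 0.056 ± 0.069 with an adjusted p of 0.763 and for nitrite reductase 0.0056 ± 0.090 with 0.985. A level difference of at least 1.5-fold was called for 0 of the 3 members and for 2.03% of all genes.

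**Figure D2:**
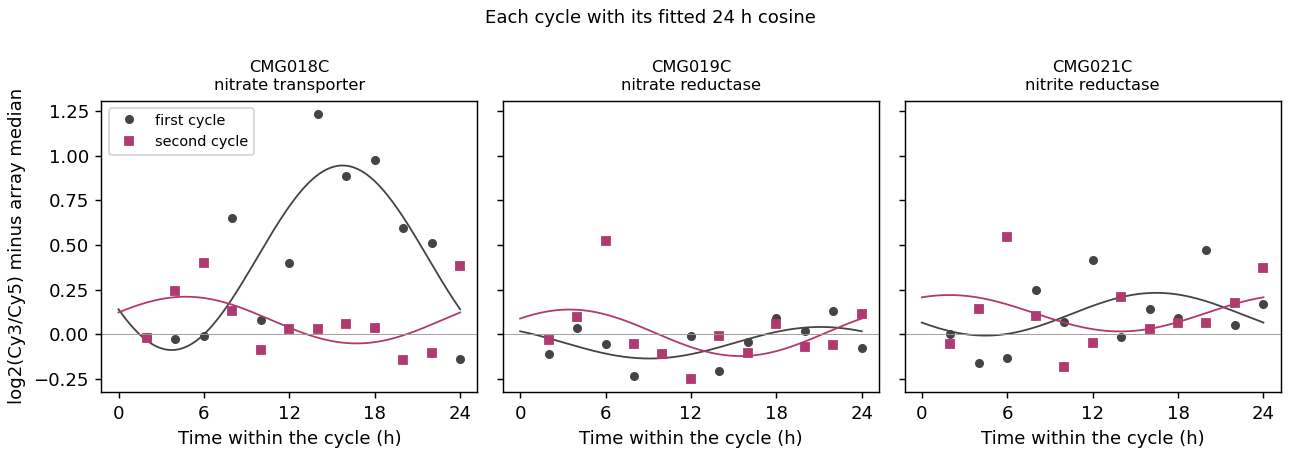
Log2 ratio to the pool (array median set to 0) against hours within the cycle for each member. Points are the values of 2 to 24 h and of 26 to 48 h, and lines are each cycle's fitted 24 h cosine. For CMG018C the points part most at 14 h, by 1.21. For CMG019C and CMG021C neither cycle's points are higher throughout.

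How closely the 3 transcripts went together differed with the normalisation. Over the 25 times Pearson's r was 0.089 between transporter and nitrate reductase, 0.31 between transporter and nitrite reductase and 0.51 between the reductases. The permutation p-values, adjusted over the 3 pairs, were 0.662, 0.190 and 0.0270, and Spearman's rho was 0.288, 0.395 and 0.365. In the authors' log2 values the same pairs had r of 0.48, 0.59 and 0.82, and all 3 passed, with adjusted permutation p-values of 0.0148, 0.00315 and 3.0e-05, the last from the smallest p the permutations can give. How common such values of r were among all genes in the authors' log2 values was not measured. What sets the normalisations apart here was not tested. Neighbouring times are not independent, so these p-values are too small and r is given as a description. Without the 2 times farthest from the median, r was 0.247 and 0.571 for the transporter pairs, both without 14 and 18 h, and 0.206 for the reductases without 30 and 36 h. Without 30 h alone the r of the reductases was 0.263 with an adjusted permutation p of 0.323, and without 36 h alone it was 0.487 with 0.0527, so with the array median set to 0 most of their relation over the course rested on 30 h.

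Within the first cycle r was -0.066, 0.247 and 0.016 in the same order of pairs, and within the second it was 0.739, 0.764 and 0.834, each of the latter with an adjusted permutation p of 0.00383 over 12 times. The difference between the cycles was not tested. In the second cycle all 3 members had their highest value at 30 h, with ratios of 0.40, 0.52 and 0.54, and without 30 h the values of r were 0.60, 0.63 and 0.65, each with an adjusted permutation p of 0.0518. With the median of the neighbouring probes subtracted they were 0.467, 0.580 and 0.508 over the 12 times, each with an adjusted permutation p of 0.133. CMG018C and CMG021C are 2 places apart, so each is among the 10 probes whose median is subtracted from the other. A movement shared by that pair can thus be subtracted in part. None of the 3 pairs passed the threshold in the second cycle under either of these settings. With loess r was 0.815, 0.732 and 0.855 over the 12 times, with adjusted permutation p-values of 0.00189, 0.00723 and 0.00159. With loess and without 30 h r was 0.699, 0.559 and 0.749, with adjusted permutation p-values of 0.0247, 0.0718 and 0.0247. Whether the pairs passed thus differed with the processing.

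The time of that shared maximum was also the maximum of many other dim probes. Among probes in the same brightness class, 20.3% had their highest value of the course at 30 h, and the 10th to 90th percentile at that time ran from -0.21 to 0.47. Each reductase lay above that 90th percentile at 30 h and the transporter below it. At 8 h the 10th to 90th percentile of the class was -0.47 to 0.44, and the transporter's 0.65 lay above it. The part of dim-probe behaviour in the shared maximum was not tested.

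With the array median set to 0, each reductase went more closely with loci further along the chromosome than with the other reductase. Of the loci from CMG013C to CMG026C, 9 are on the array, in the tag order CMG014C, CMG015C, CMG016C, CMG018C, CMG019C, CMG021C, CMG022C, CMG023C and CMG025C. No product is given for the 6 that are not members. Nitrite reductase went with CMG023C at r = 0.92 over 25 times, and nitrate reductase with CMG022C at 0.76 and with CMG025C at 0.78, each more than the 0.51 between the reductases. With neighbouring probes subtracted, nitrate reductase had 0.384 with CMG022C and 0.298 with CMG025C, against 0.380 between the reductases. Nitrite reductase then had 0.589 with CMG023C. In each of these pairs with a further locus, the locus is itself among the probes subtracted. CMG022C and CMG025C went together at 0.96. The annotated span of CMG022C lies inside that of CMG021C, and their r was 0.55. The transporter's r with its 8 measured neighbours, the reductases included, ran from -0.26 to 0.31.

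At some times the loci from CMG018C to CMG025C alternated along the order. At 8 and 12 h CMG018C, CMG021C and CMG023C lay above 0, while CMG019C, CMG022C and CMG025C lay near or below it. CMG014C, CMG015C and CMG016C did not alternate at 8 h, at -0.01, -0.48 and -0.69. At 16 h CMG022C and CMG025C, at 0.32 and 0.21, lay above CMG021C and CMG023C, at 0.14 and 0.08. At 30 h all 6 loci from CMG018C to CMG025C were high, with CMG022C at 0.63, CMG023C at 0.48 and CMG025C at 0.69. The difference between the readings of series 1 and 2, which compares readings of the same time, correlated at 0.82 between CMG021C and CMG023C and at -0.31 between CMG019C and CMG021C. Over the whole array the mean r was 0.0844 for probes 1 place apart in tag order, 0.170 for 2 places, 0.0970 for 3 places, 0.115 for 4 places and 0.00500 for 50 places. For the reading differences it was 0.0214 for 1 place, 0.0844 for 2 places and 0.000580 for 50 places. The files do not give the places of the spots on the glass, and the part of probe position in these relations was not tested.

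**Figure D3:**
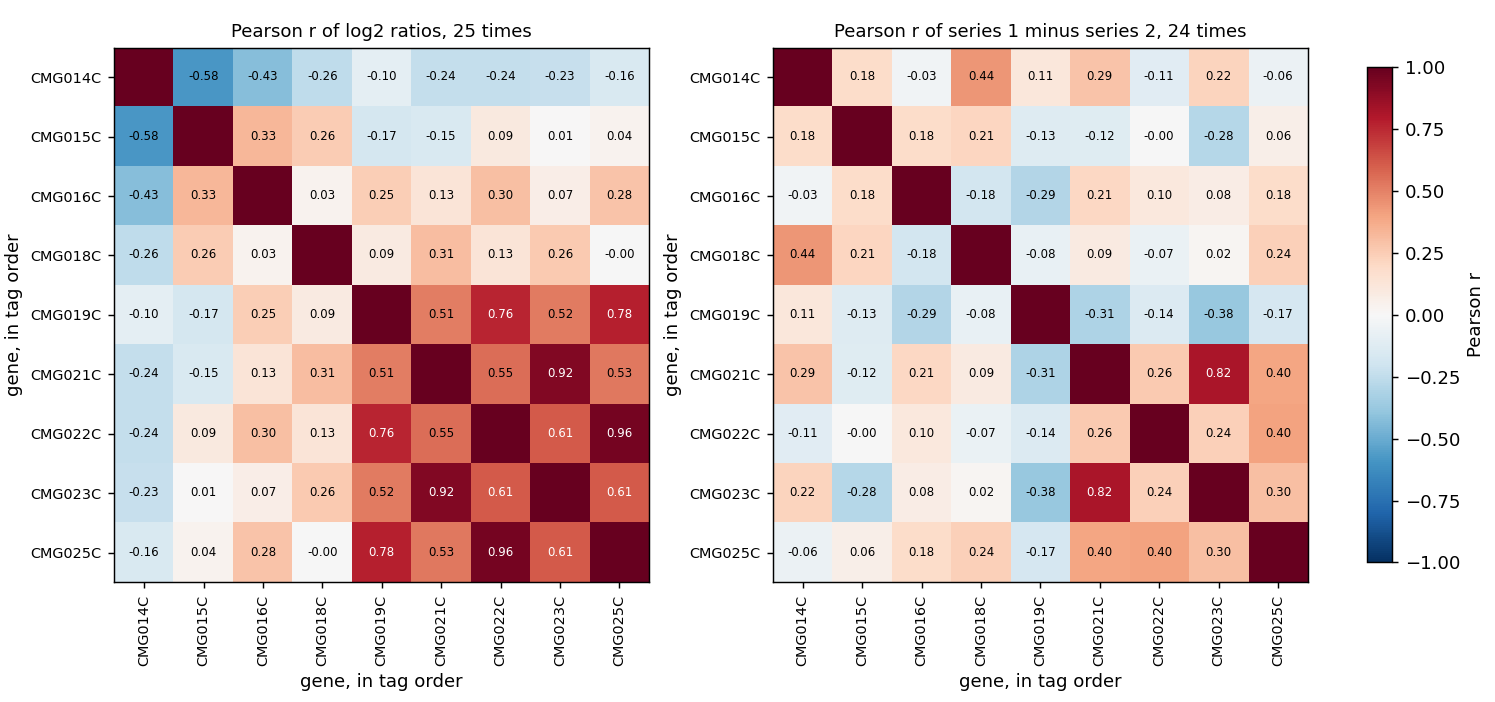
Pearson's r between each pair of the 9 measured loci from CMG014C to CMG025C, in tag order, for the log2 ratios over 25 times (left) and for the difference between readings of series 1 and 2 over 24 times (right). CMG021C and CMG023C reach 0.92 on the left and 0.82 on the right, while the row of CMG018C stays between -0.26 and 0.31 on the left.

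The genes whose course was most like each member's differed between members. For the transporter they were CMG092C with r = 0.81 over 25 times, CMT265C with 0.71 and CMR268C with 0.71, and only CMG092C passed 0.8. For nitrate reductase they were CMS160C, CMP321C and CMQ473C with 0.93, 0.93 and 0.92, and 33 genes passed 0.8. For nitrite reductase they were CMQ196C, CMK302C and CMP333C with 0.97, 0.96 and 0.96, and 39 genes passed 0.8. All 6 of these genes most like a reductase had their highest value at 30 h. Neither reductase was among the genes most like the other: 7.93% of the 4575 other genes had a higher r with CMG019C than CMG021C had, and 7.65% had a higher r with CMG021C than CMG019C had. For the transporter, 42.3% of genes had a higher r with it than nitrate reductase had and 13.9% a higher r than nitrite reductase had. With the mean of the 3 standardised profiles the closest was CMF083C at 0.809.

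For other genes of nitrogen use, the reference table gave no product to search by. The 2 further loci listed by tag, CMI233C and CMJ282C, have no annotation in the sources used here and are given no role. CMI233C ran from -2.68 at 14 h, the time of the transporter's maximum, to 0.85 at 4 h. It was nearly as low at 38 and 40 h, at -2.65 and -2.64, where the transporter's ratio was 0.03 and 0.06. Its 24 h rhythm was called, at 2.62 ± 0.37 (SE), with a peak at 3.87 h and an adjusted p of 1.01e-04 in limma. From the first to the second cycle its level changed by -0.80 ± 0.16 (SE) with an adjusted p of 0.00973, and with loess the adjusted p was 0.0619. CMJ282C ran from -1.45 at 46 h to 1.32 at 24 h, with no called rhythm. With loess it was -0.60 at 46 h and lowest at 30 h, at -0.81. It was lower in the second cycle at 10 of 12 matched times, with a mean difference of -0.62 ± 0.16 (SE) and an adjusted p of 0.0378. With loess that difference was -0.56 with an adjusted p of 0.0382, which is under the 1.5-fold that a call needs. Of the 2 loci, 1 was called for rhythm and 2 for a lower level, against 6.03% and 1.97% of all genes, and neither level call held with loess.

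The transporter was at its highest at 14 h under each of 5 ways of processing, while the size of its swing differed between them. With the median of the 10 neighbouring probes at even places in tag order subtracted, its ratios were 1.32, 0.74, 0.87, 0.53 and 0.47 from 14 to 22 h and 0.98 at 8 h. Its range was 1.54 with loess, 1.69 in the authors' log2 values and 2.27 after normexp background correction. With scaling between arrays, which is not among the 5, the range was smaller than with the array median alone.

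**Figure D4:**
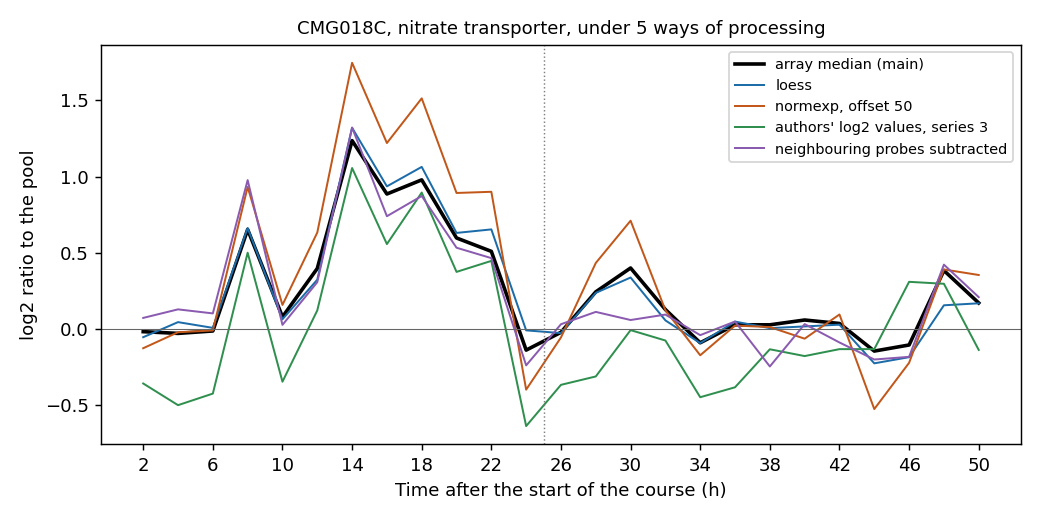
Log2 ratio of CMG018C to the pool against time in hours under 5 ways of processing the same 25 times. Every line is at its highest at 14 h, and the ranges run from 1.38 with the array median to 2.27 with normexp.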

How the data were processed

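Two-colour array files of strain 10D were used, 1 per time and series. The files hold raw Cy3 and Cy5 intensity values per probe, as deposited by the authors, beside a log2 ratio that the authors normalised by a method that neither labels nor headers state. The same holds for the scanner software and any background handling. Intensities were present for 73 of the 75 arrays, and for the other 2, both at 14 h, only the authors' log2 ratio was deposited. The log2 ratio of Cy3 to Cy5 was taken per probe, each array's median was subtracted, and probes of a gene were averaged (4586 probes, 4576 genes). Series 3 supplied 1 value per time. Depth has no counterpart here, and the number of arrays limits the precision.

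limma 3.58.1 in R 4.3.3 was fitted to all genes, with Benjamini-Hochberg adjustment over all of them. The models were a cosine and sine of 24 h, the mean of 12 differences between times 24 h apart, and the interaction of cycle with the rhythm. Calls needed an adjusted p under 0.05, with a peak-to-trough of at least 1 for rhythms and a 1.5-fold difference for levels. Each fit was tested on simulated data with noise drawn independently at each time and planted rhythms larger than those fitted for the members. That test does not cover dependence between neighbouring times. Correlations used 100000 permutations (numpy 2.4.6). Alternatives were loess, scaling between arrays, normexp with an offset of 50, the authors' log2 values, array weights, other periods and the replicate block. Dim probes, bright arrays, series or times were also left out. For a series left out, the log2 ratios of the other series were averaged, without 14 h. Since series 3 is the mean of the others, no reading was removed in full. These settings therefore do not test how far a result rests on a reading. Subtraction of neighbouring probes, and the first cycle alone under each setting, were added after seeing the data.

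The text names the 3 members, measured loci from CMG013C to CMG026C, 2 loci by tag and the genes most like each member by Pearson's r over 25 times (3 per member, and the closest of 5 for their mean). The members and lists were chosen with earlier results of these data known. Of the 4576 genes, 4565 matched the RefSeq table (assembly ASM9120v1), used for names and neighbours only. No sequence or coordinate is printed.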

Additional observations from a re-analysis of the deposited data

Results flagged for a closer look

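The test of the difference between the cycles singled out CMG018C, the nitrate transporter. The fitted 24 h peak-to-trough of CMG018C changed by -0.77 on the log2 scale from the first to the second cycle, with an adjusted p of 0.0377 in limma's interaction test. The cycles were sampled once each and in sequence, so cycle, time since synchronisation and array cannot be told apart.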

How the results depend on the processing

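In CMG018C the 24 h rhythm over all times stayed uncalled in 43 of 44 alternatives, the exception being 2 to 24 h alone (1.03). Its adjusted p passed in the authors' values (0.62, adjusted p 0.04997), with array weights (0.45, 0.0450) and on all arrays (0.29, 0.0392 without and 0.0440 with the replicate block), at a peak-to-trough under 1. On 2 to 24 h alone the call held in 14 of 22 alternatives. It was lost with neighbouring probes subtracted (0.83), without the bright arrays (1.1), without 14, 18 or 24 h. The settings without 1 series also lack 14 h, the peak, and lost the call too (0.87 to 0.93). With 1 time or series left out the value ran from 0.87 to 1.14, adjusted p 0.00601 to 0.0475. Calls lost there fell under the peak-to-trough of 1. The change of its rhythm between cycles kept its sign but lost its call with the authors' log2 values (-0.87, adjusted p 0.0738), neighbouring probes subtracted (-0.57, 0.171) and without the bright arrays (-0.77, 0.113). It also lost it without 2, 4, 6, 14, 16, 18, 20, 28, 30, 34, 36, 38, 40, 42 or 44 h. The call was lost too without series 1 or 3, where 14 h is missing as well (-0.62 and -0.64, against -0.64 without 14 h alone). The leave-one-out values ran from -0.88 to -0.62, with adjusted p 0.0241 to 0.0865.

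No level difference of a member was called in any of 39 alternatives per member, though for CMG018C on all arrays the adjusted p passed (1.19e-04) at under 1.5-fold. The difference of CMG019C turned sign with neighbouring probes subtracted (-0.062) and without the bright arrays (-0.0054). That of CMG021C, near 0, turned with loess (-0.012), scaling (-0.015), normexp (-0.018), neighbouring probes (-0.044), without the bright arrays (-0.095), with array weights (-0.048), on all arrays without a block (-0.0045) and with the replicate block (-0.0047), and ran from -0.055 to 0.048 with 1 time or reading left out. With all arrays, which counts readings of 1 sample as samples, the rhythm change was called for CMG019C (0.088 without and 0.088 with the replicate block) and CMG021C (-0.087 without and -0.088 with it). Those p-values are too small, and the same-numbered readings are not separate cultures. The change of CMG021C was 0.064 in the authors' values, 0.095 with neighbouring probes subtracted and 0.29 without the bright arrays. With 1 time or series left out that change ran from -0.15 to 0.087. That of CMG019C ran from -0.015, without 30 h, to 0.15.

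The correlation of CMG018C with CMG019C was 0.48 in the authors' values, past the threshold. With CMG021C it was 0.59 there, also past it, and ran from 0.26 to 0.48 with 1 time or series left out. It passed the threshold without 14 h, as it did without each series, where 14 h is missing too. For the reductases it was 0.82 in the authors' values and missed the threshold with loess (0.43), scaling (0.45), neighbouring probes subtracted (0.38) and without 30, 36 or 48 h (0.26 to 0.59 over all left-out times). The range of CMG018C was 1.54 with loess, 1.12 with scaling, 2.27 with normexp, 1.69 in the authors' values and 1.57 with neighbouring probes subtracted. It was 1.12 to 1.38 with 1 time or series left out. For CMG019C these were 0.58, 0.65, 1.66, 1.02, 0.59 and 0.38 (without 30 h) to 0.78. For CMG021C they were 0.62, 0.87, 1.36 and 1.22 under the first 4, and 0.66 to 0.75. The cause of these shifts was not tested.

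Over all genes, rhythm calls went from 276 to 234 with loess and 444 with normexp. Rhythm calls on the first cycle alone went from 238 to between 194 and 449. Level calls went from 93 to 53 with loess and 160 with normexp, and interaction calls from 33 to between 10 and 60 with 1 time left out, 108 with loess, 2813 on all arrays and 2770 with the replicate block. The 1 value per time with no replicate culture, dim probes and an unstated background limit all of these values.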
